A study of Mus musculus with 6 samples.

Results

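This account describes 9 chemokine receptor genes of the mouse, Ccr1, Ccr2, Ccr7, Ccrl2, Cxcr1, Cxcr2, Cxcr4, Cx3cr1 and Ackr3, out of 21959 genes in the deposited expression table. They were taken by name, after the table's gene identifiers had been matched to symbols. The table holds 6 RNA-seq libraries in 2 groups, 3 labelled GPR35-positive and 3 labelled GPR35-negative. Both groups are labelled as neutrophils, and the series describes them as neutrophils associated with tumours grown from Hepa1-6, a hepatoma cell line of the mouse. GPR35 is a G protein-coupled receptor. Mouse strain, age, tumour site, the sorting scheme and whether replicates were separate animals are not stated by the labels, so p-values here reflect only the scatter among the 6 libraries, which may be technical. Values are FPKM, fragments scaled to exon length and to the assigned reads of the library, and the comparison asks how receptor transcripts differed between GPR35-positive and GPR35-negative libraries.

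Chemokine receptors are membrane proteins with a bundle of helices that couple to inhibitory G proteins and steer leukocytes along gradients of small secreted chemokines. In neutrophils, CXCR2 directs cells out of the bone marrow and into inflamed tissue, while CXCR4 holds them in the marrow and marks aged cells. CCR1 and CCR2 serve inflammatory recruitment of myeloid cells, CCR7 serves homing to lymph nodes, and CX3CR1 marks patrolling monocytes and tissue macrophages. CCRL2 and ACKR3 are atypical receptors that bind an attractant without driving migration through G proteins.

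The libraries held 15742742 to 18314104 reads assigned to genes, a depth recovered from the step sizes of low FPKM values. Gpr35, the gene named by the labels, had 18.2, 21.9 and 20.4 FPKM in the GPR35-positive libraries, against 2.03, 1.378 and 1.30 FPKM in GPR35-negative libraries. The labelled cell type was checked against 18 neutrophil markers, of which 18 were higher in GPR35-positive libraries, as were 23.3% of all genes tested (45.5% were lower), with a summed level of 10487 ± 489 FPKM there and 1046 ± 128 FPKM in GPR35-negative libraries (SD, n = 3 each), a ratio of 10.0. Summed markers of hepatocytes and hepatoma cells exceeded the neutrophil sum in both groups, at 17231 ± 227 FPKM in GPR35-positive and 26210.2 ± 721 FPKM in GPR35-negative libraries. Of these 14 markers 12 were lower, Serpina1a was higher and Apoa2 did not pass, where 45.5% of all genes tested were lower. Trf, Krt18 and Krt8 gave most of the sum, at 7130, 4224 and 3604 FPKM in GPR35-positive libraries. Ratios of mean FPKM of the single markers ran from 0.454 for Hnf4a to 1.65 for Serpina1a. Macrophage and monocyte markers summed to 967 ± 16.6 FPKM in GPR35-positive and 45.9 ± 6.99 FPKM in GPR35-negative libraries (SD, n = 3 each). Of these markers 11 were tested and 11 were higher, but 5, Adgre1, Csf1r, Mrc1, Fcgr1 and Mertk, reached 1 FPKM in no GPR35-negative library and so met the filter through the GPR35-positive libraries alone, as Itgax and Batf3 of the dendritic cell list, Siglecf and Ear2 of the granulocyte and mast cell list, Eng of the endothelial list and Fpr2 of the neutrophil list also did. Marco, Vsig4, Timd4 and Clec4f, markers of resident macrophages, were at 0 to 0.382 FPKM in the 6 libraries. Of the dendritic cell list 3 of 10 markers passed the filter and were higher, while Flt3 and Siglech were at or under 0.0905 FPKM everywhere. T and NK cell markers summed to 64.5 ± 1.48 FPKM in GPR35-positive and 85.4 ± 10.3 FPKM in GPR35-negative libraries (SD, n = 3 each), with 0 of 9 tested higher and 4 lower, or 2 lower with median-of-ratios scaling, under which Lck and Prf1 did not pass. B cell markers summed to 1.09 FPKM in GPR35-positive and 0.532 FPKM in GPR35-negative libraries, and 0 of 4 passed the filter. Endothelial markers summed to 13.8 FPKM in GPR35-positive and 15.2 FPKM in GPR35-negative libraries, with 2 higher and 2 lower, of which Esam did not pass once median-of-ratios scaling was applied. Of the eosinophil, basophil and mast cell markers 5 of 5 tested were higher, at sums of 49.1 FPKM in GPR35-positive and 9.64 FPKM in GPR35-negative libraries, while the eosinophil peroxidase gene Epx was at or under 0.0224 FPKM everywhere. In such bulk libraries fewer cells of a type and less RNA per cell cannot be told apart, and the part of these marker differences in the receptor results below was not tested.

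The upstream sequences of 4 receptor genes are shown because these genes had the highest ratios between the groups, each at least 9.47. Each run is the 250 bases before the transcription start, 5′ to 3′ on the gene's strand, from RefSeq on GRCm38.p6, in which 8 of the 9 genes had an entry. Capitals mark matches to 4 short motifs searched on both strands, which were the C/EBP motif TTGCNNAA, the PU.1 core GAGGAAG, the AP-1 motif TGANTCA and the TATA box TATAAA. The Ccr1 window is chr9:123968693-123968942 on the reverse strand, the Ccrl2 window is chr9:111057519-111057768 on the reverse strand, the Cxcr2 window is chr1:74153744-74153993 on the forward strand and the Cxcr4 window is chr1:128592300-128592549 on the reverse strand.
Ccr1: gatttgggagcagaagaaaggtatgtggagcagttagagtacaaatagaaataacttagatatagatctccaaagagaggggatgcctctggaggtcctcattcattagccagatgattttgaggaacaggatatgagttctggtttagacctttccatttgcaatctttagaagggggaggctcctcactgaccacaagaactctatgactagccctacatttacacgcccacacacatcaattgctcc
Ccrl2: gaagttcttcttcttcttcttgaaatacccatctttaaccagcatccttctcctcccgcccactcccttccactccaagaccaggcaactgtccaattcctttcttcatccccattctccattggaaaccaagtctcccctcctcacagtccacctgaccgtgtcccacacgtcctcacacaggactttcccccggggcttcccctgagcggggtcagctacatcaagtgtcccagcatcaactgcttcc
Cxcr2: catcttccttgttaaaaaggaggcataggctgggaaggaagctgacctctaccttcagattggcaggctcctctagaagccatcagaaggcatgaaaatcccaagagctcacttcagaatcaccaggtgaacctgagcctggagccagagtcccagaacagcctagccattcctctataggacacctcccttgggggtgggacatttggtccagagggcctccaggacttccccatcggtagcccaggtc
Cxcr4: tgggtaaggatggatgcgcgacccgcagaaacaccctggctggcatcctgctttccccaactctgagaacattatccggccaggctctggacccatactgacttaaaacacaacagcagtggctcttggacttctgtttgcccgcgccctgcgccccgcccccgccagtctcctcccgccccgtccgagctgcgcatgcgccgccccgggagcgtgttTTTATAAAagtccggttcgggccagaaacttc
Cxcr4 carried overlapping TATA box letters on both strands, 32 and 30 bases before the start. In the windows of Ccr1, Ccrl2 and Cxcr2 none of the 4 motifs was found, and of the other 4 windows only that of Ackr3 held any, a C/EBP match 47 bases and a TATA box match 8 bases before the start. Over 32851 RefSeq promoter windows of the same length, 9.56% held the C/EBP motif, 10.6% the PU.1 core, 6.75% the AP-1 motif and 12.4% the TATA box. The Cxcr4 window was 61.2% G and C, against 43.6% for Ccr1, 54.0% for Ccrl2 and 54.4% for Cxcr2. A match describes letters only, and these windows say nothing of whether a factor was bound.

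All 9 receptor genes were at a higher level in every GPR35-positive library than in any GPR35-negative library. The same held for 21.3% of the 19818 genes above 0 in at least 1 library. Of the 9, 7 passed the filter of at least 1 FPKM in at least 3 libraries, and all 7 were higher by limma-trend on log2(FPKM + 1) with Benjamini-Hochberg adjustment over 10060 genes, while 0 were lower. Across all genes tested, 23.3% were higher and 45.5% lower by the same rule. Cxcr4, Cxcr1 and Cx3cr1 passed the filter only through the GPR35-positive libraries, so that a difference was built into their passing. With a filter of 0.1 FPKM, which all 9 genes met in all 6 libraries, 9 of 9 were higher, against 24.5% of 13243 genes. The median log2 fold change was then 1.11 for the 9 genes and −0.11 for all 13243. The folds of the 9 genes ran from 2.27 for Ccr7 to 14.0 for Ccr1 as ratios of mean FPKM, beside the 10.0 of the summed neutrophil markers.

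**Figure D1:**
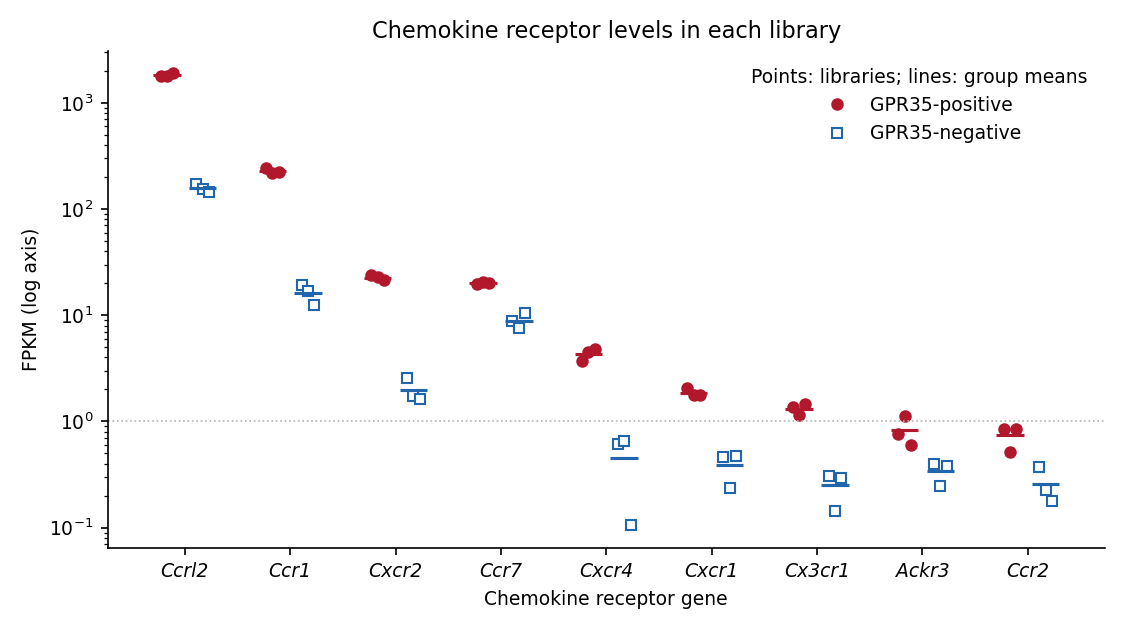
Level of each of the 9 chemokine receptor genes in FPKM (log axis) in 3 GPR35-positive (filled circles) and 3 GPR35-negative libraries (open squares), with lines at the group means and a dotted line at 1 FPKM. Every GPR35-positive library lies above every GPR35-negative library for each gene, and Ccrl2 stands highest, at 1772 to 1893 FPKM in GPR35-positive libraries and 144 to 171 FPKM in GPR35-negative libraries.

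Among the inflammatory CC receptors, Ccr1 was abundant and Ccr2 scarce. Ccr1, which encodes a receptor for CCL3, CCL5, CCL6 and CCL9 in the mouse, had 242, 216 and 223 FPKM in the GPR35-positive libraries, against 19.2, 16.8 and 12.6 FPKM in GPR35-negative libraries. The groups did not overlap, and the lowest value was in GPR35-negative replicate 3. The means were 227 ± 13.1 FPKM in GPR35-positive and 16.2 ± 3.37 FPKM in GPR35-negative libraries (SD, n = 3 each), a ratio of 14.0, with a log2 fold change of 3.75 (SE 0.13, limma adjusted p = 2.47e-09), the 26th largest of 10060. The gene, ENSMUSG00000025804, is on the reverse strand of chromosome 9 (123962124 to 123968692, GRCm38), and the GPR35-negative values rest on 560 to 938 reads.

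Ccr2, the receptor gene for CCL2, CCL7 and CCL12 and the hallmark of inflammatory monocytes, had 0.855, 0.516 and 0.848 FPKM in the GPR35-positive libraries, against 0.369, 0.227 and 0.179 FPKM in GPR35-negative libraries. No value of one group reached the other, but all 6 values were under 1 FPKM and none passed the main filter. Its mean was 0.740 ± 0.193 FPKM in GPR35-positive and 0.258 ± 0.099 FPKM in GPR35-negative libraries (SD, n = 3 each), a ratio of 2.87. With the filter of 0.1 FPKM it was higher, with a log2 fold change of 0.46 (SE 0.09, limma adjusted p = 0.00213). Ccr2 (ENSMUSG00000049103, chromosome 9, 124101950 to 124113557, forward strand, GRCm38) was covered by 57 to 105 reads in GPR35-positive and 19 to 43 reads in GPR35-negative libraries, and 1.91% of its 50-base stretches also occur in transcripts of other genes.

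Ccr7, the lymph node homing receptor of dendritic cells and lymphocytes, had the smallest fold of the 9 genes. It had 19.7, 20.7 and 20.3 FPKM in the GPR35-positive libraries, against 8.77, 7.55 and 10.4 FPKM in GPR35-negative libraries. There was no overlap, and the GPR35-positive libraries were close to each other. The means were 20.2 ± 0.472 FPKM in GPR35-positive and 8.92 ± 1.45 FPKM in GPR35-negative libraries (SD, n = 3 each), a ratio of 2.27, with a log2 fold change of 1.11 (SE 0.10, limma adjusted p = 6.97e-06). The gene, ENSMUSG00000037944, lies on the reverse strand of chromosome 11 from 99144196 to 99155077 in GRCm38, and 253 to 735 reads covered it. The dendritic cell marker list summed to 266 ± 27.3 FPKM in GPR35-positive and 15.9 ± 0.636 FPKM in GPR35-negative libraries (SD, n = 3 each), of which Cd83 gave 246 FPKM in GPR35-positive and 12.8 FPKM in GPR35-negative libraries, while Flt3 averaged 0.0433 FPKM in GPR35-positive and 0.0301 FPKM in GPR35-negative libraries. The T cell markers Cd3d and Cd3g averaged 3.42 and 3.36 FPKM in the GPR35-positive libraries, against 3.61 and 3.62 FPKM in GPR35-negative libraries, and did not pass. The part of these cell types in the Ccr7 result was not tested.

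Of the neutrophil CXC receptors, Cxcr2 was the more abundant. Cxcr2, the main receptor of mouse neutrophils for CXCL1, CXCL2 and CXCL5, had 23.8, 22.8 and 21.2 FPKM in the GPR35-positive libraries, against 2.57, 1.72 and 1.63 FPKM in GPR35-negative libraries. The groups were far apart, and GPR35-negative replicate 1 was the highest of its group. The mean was 22.6 ± 1.30 FPKM in GPR35-positive and 1.97 ± 0.518 FPKM in GPR35-negative libraries (SD, n = 3 each), a ratio of 11.5, with a log2 fold change of 3.0 (SE 0.12, limma adjusted p = 7.13e-09). Its locus, ENSMUSG00000026180, is on the forward strand of chromosome 1 (74153989 to 74161246, GRCm38), with 1137 to 1244 reads in GPR35-positive and 78 to 135 reads in GPR35-negative libraries. Of its 50-base stretches 6.68% also occur in transcripts of other genes, so the authors' counting may have shared out or dropped some of its reads.

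Cxcr1, the neighbouring receptor gene, whose human counterpart binds interleukin 8, had 2.07, 1.77 and 1.76 FPKM in the GPR35-positive libraries, against 0.467, 0.238 and 0.469 FPKM in GPR35-negative libraries. The groups did not overlap, although the GPR35-negative values rest on 6 to 12 reads. The mean was 1.87 ± 0.181 FPKM in GPR35-positive and 0.391 ± 0.133 FPKM in GPR35-negative libraries (SD, n = 3 each), a ratio of 4.77, with a log2 fold change of 1.05 (SE 0.09, limma adjusted p = 4.2e-06). Cxcr1 (ENSMUSG00000048480) lies on the reverse strand of chromosome 1 from 74191785 to 74194631 in GRCm38, 30.5 kb beyond the end of Cxcr2, and shares none of its 50-base stretches with another gene. The log2 fold change was 2.26 with limma-voom on the recovered reads and 2.04 with a pseudocount of 0.1, since the pseudocount of 1 understates the change of low genes.

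Cxcr4, the receptor gene for CXCL12, had 3.68, 4.505 and 4.77 FPKM in the GPR35-positive libraries, against 0.609, 0.653 and 0.105 FPKM in GPR35-negative libraries. The groups did not overlap, and GPR35-negative replicate 3, with 3 reads, lay well under the others of its group, which had 19 and 20 reads. The exact 95% Poisson interval of those 3 reads ran from 0.619 to 8.77 and covers counting error only. The mean was 4.32 ± 0.569 FPKM in GPR35-positive and 0.456 ± 0.304 FPKM in GPR35-negative libraries (SD, n = 3 each), with a log2 fold change of 1.89 (SE 0.15, limma adjusted p = 1.87e-06). The ratio of means was 9.47, and 6.84 without GPR35-negative replicate 3, where the log2 fold change was 1.70. With limma-voom the log2 fold change was 3.51, and with a pseudocount of 0.1 it was 3.20. The gene, ENSMUSG00000045382, lies on the reverse strand of chromosome 1 from 128588199 to 128592293 in GRCm38.

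The balance of Cxcr2 over Cxcr4, receptors with opposed roles in neutrophil release from the marrow, did not separate the groups. The ratio of their FPKM was 6.47, 5.07 and 4.45 in GPR35-positive libraries, against 4.21, 2.64 and 15.4 in GPR35-negative libraries. The highest ratio came from GPR35-negative replicate 3, the library with 3 Cxcr4 reads, and the other GPR35-negative libraries lay under all GPR35-positive ones.

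Cx3cr1, the fractalkine receptor gene of patrolling monocytes and tissue macrophages, was low in all libraries. It had 1.36, 1.14 and 1.47 FPKM in the GPR35-positive libraries, against 0.309, 0.144 and 0.296 FPKM in GPR35-negative libraries. Again there was no overlap, and the gene had 84 to 121 reads in GPR35-positive and 11 to 24 reads in GPR35-negative libraries. The mean was 1.32 ± 0.166 FPKM in GPR35-positive and 0.250 ± 0.092 FPKM in GPR35-negative libraries (SD, n = 3 each), a ratio of 5.30, with a log2 fold change of 0.89 (SE 0.09, limma adjusted p = 9.02e-06) that was 2.45 with limma-voom and 2.06 with a pseudocount of 0.1. The gene, ENSMUSG00000052336, spans chromosome 9 from 119901616 to 120069879 on the reverse strand in GRCm38, a span that overlaps Wdr48, Gorasp1, Ttc21a, Csrnp1 and Xirp1, and no source used here says whether counting used strand.

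The atypical receptor genes lay far apart in level, with Ccrl2 the highest of the receptors described and Ackr3 among the lowest. Ccrl2, whose protein binds chemerin and has been described as a partner of CXCR2 on mouse neutrophils, had 1796, 1772 and 1893 FPKM in the GPR35-positive libraries, against 171, 156 and 144 FPKM in GPR35-negative libraries. These were by far the highest receptor levels, and the groups were far apart. The mean was 1820.1 ± 63.9 FPKM in GPR35-positive and 157 ± 13.3 FPKM in GPR35-negative libraries (SD, n = 3 each), a ratio of 11.6, with a log2 fold change of 3.53 (SE 0.08, limma adjusted p = 4.31e-10). By mean FPKM it was the 18th most abundant of all genes in GPR35-positive libraries and the 343rd in GPR35-negative libraries. Between 75176 and 90046 reads covered it in GPR35-positive and between 5909 and 7663 in GPR35-negative libraries. The gene, ENSMUSG00000043953, lies on the reverse strand of chromosome 9 from 111054486 to 111057519 in GRCm38, 12.9 Mb from Ccr1, and shares none of its 50-base stretches with another gene.

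Ackr3, an atypical receptor gene whose protein takes up CXCL11 and CXCL12, had 0.767, 1.13 and 0.603 FPKM in the GPR35-positive libraries, against 0.398, 0.247 and 0.379 FPKM in GPR35-negative libraries. The groups did not overlap, but only GPR35-positive replicate 2 exceeded 1 FPKM, so that the gene missed the main filter. Its mean was 0.835 ± 0.272 FPKM in GPR35-positive and 0.342 ± 0.083 FPKM in GPR35-negative libraries (SD, n = 3 each), a ratio of 2.44. With the filter of 0.1 FPKM it was higher, with a log2 fold change of 0.44 (SE 0.10, limma adjusted p = 0.00462). Ackr3 (ENSMUSG00000044337, chromosome 1, 90203980 to 90216751, forward strand, GRCm38) had 37 to 62 reads in GPR35-positive and 14 to 23 reads in GPR35-negative libraries.

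The order of the receptor levels in FPKM differed between the groups at Cxcr2 and Ccr7. In GPR35-positive libraries the order ran Ccrl2, Ccr1, Cxcr2, Ccr7, Cxcr4, Cxcr1, Cx3cr1, Ackr3 and Ccr2, and only the last pair of neighbours overlapped. In GPR35-negative libraries Ccr7 stood above Cxcr2, in all 3 libraries, and the lower 5 genes, Cxcr4, Cxcr1, Ackr3, Ccr2 and Cx3cr1, overlapped each with the next. Summed over 23 chemokine receptor genes the level was 2107 ± 63.5 FPKM in GPR35-positive and 193 ± 18.1 FPKM in GPR35-negative libraries (SD, n = 3 each). Ccrl2 made up 86.4% ± 0.749 of that sum in GPR35-positive libraries and 81.6% ± 0.711 in GPR35-negative libraries, and Ccr1 made up 10.8% ± 0.652 in GPR35-positive and 8.35% ± 1.05 in GPR35-negative libraries (SD, n = 3 each). Ccr7 took 0.961% ± 0.042 of the sum in GPR35-positive libraries, against 4.68% ± 1.09 in GPR35-negative libraries.

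Set beside the summed neutrophil markers of the same library, the receptor genes did not share 1 direction. Most of that sum came from S100a8 and S100a9, at means of 5262 and 2493 FPKM in GPR35-positive and 517 and 245 FPKM in GPR35-negative libraries. Between the groups, the ratios of mean FPKM of the single markers ran from 4.02 for Lrg1 to 16.6 for Fpr2. Of the tested receptor genes only Ccr7, at 2.27, lay outside that range. The level of Ccr1 was 2.29%, 2.17% and 2.04% of the marker sum in GPR35-positive libraries, against 1.64%, 1.59% and 1.376% in GPR35-negative libraries, a difference of 0.50 in mean log2 ratio. Ccrl2 was 17.0%, 17.8% and 17.3% of the sum in GPR35-positive libraries, against 14.6%, 14.7% and 15.8% in GPR35-negative libraries, a difference of 0.21. For both genes the groups did not overlap and the ratio was higher in GPR35-positive libraries. In a two-sided exact permutation test each gave p = 0.1, the smallest value that 3 libraries against 3 can give, so no ratio could pass 0.05.

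Ccr7 ran the other way, at 0.187%, 0.208% and 0.186% of the neutrophil marker sum in GPR35-positive libraries, against 0.750%, 0.713% and 1.14% in GPR35-negative libraries, a difference of −2.14 in mean log2 ratio (exact permutation p = 0.1). Cxcr1 was lower beside the markers in every GPR35-positive library, with a difference of −1.01 (exact permutation p = 0.1). Cx3cr1 was 0.0129%, 0.0115% and 0.0134% of the sum in the GPR35-positive libraries, against 0.0264%, 0.0136% and 0.0325% in GPR35-negative libraries, separated by a narrow margin, with a difference of −0.85 (exact permutation p = 0.1). Cxcr1 and Cx3cr1 rest on 6 to 24 reads in each GPR35-negative library. Another measure used the mean log2(FPKM + 1) of the markers in place of their sum, and no pseudocount on the receptor. With it the exact permutation p became 0.3 for Cxcr1 and 0.4 for Cx3cr1. For Cxcr2 that measure gave a difference of 0.65 (exact permutation p = 0.1). Beside the sum of the markers its difference was 0.22 and the groups overlapped (exact permutation p = 0.2). The Cxcr2 result thus depended on the measure. Cxcr4 overlapped as well, with a difference of 0.30 (exact permutation p = 1) that turned to −0.47 without GPR35-negative replicate 3.

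**Figure D2:**
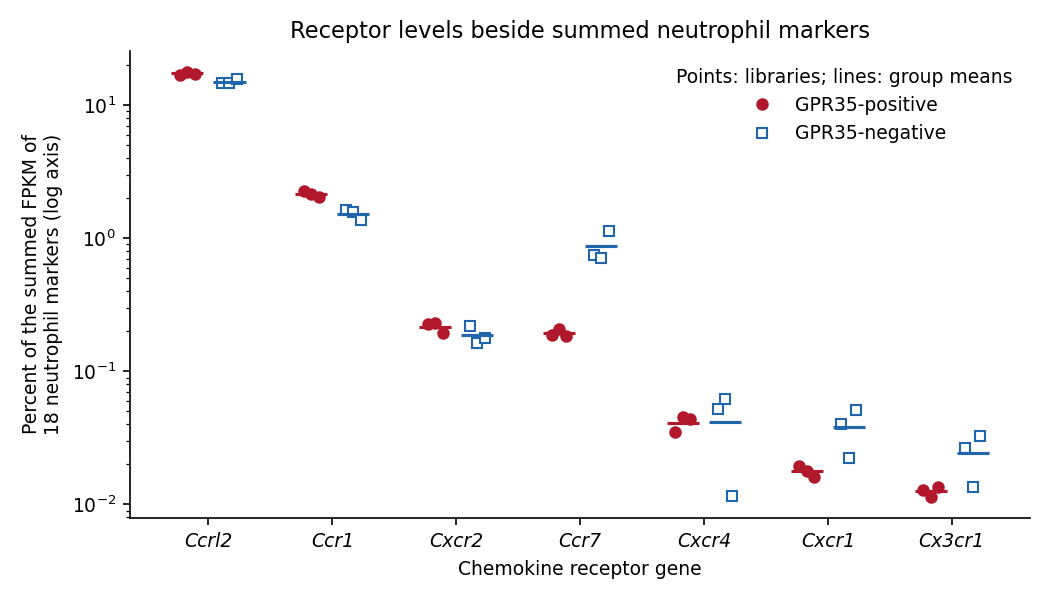
Level of each tested receptor gene as a percent of the summed FPKM of 18 neutrophil markers (log axis) in each of 3 GPR35-positive (filled circles) and 3 GPR35-negative libraries (open squares), with lines at the group means. Ccrl2 and Ccr1 are higher and Ccr7, Cxcr1 and Cx3cr1 lower in every GPR35-positive library, while Cxcr2 and Cxcr4 overlap.

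Beside the summed macrophage and monocyte markers, whose sum was 21.1-fold higher in GPR35-positive libraries, the mean log2 ratio was lower there for all 7 genes, and the groups overlapped for Cxcr4 (exact permutation p = 0.4), whose ratio in GPR35-negative replicate 3 was the lowest of the 6. Ccr1 was 25.5%, 22.3% and 22.7% of that sum in GPR35-positive libraries, against 36.6%, 36.2% and 32.6% in GPR35-negative libraries (exact permutation p = 0.1). The direction changed with the measure for 6 of the 7 genes. With the mean log2(FPKM + 1) of the markers, to which 4 markers near 0 contribute, the difference was 1.60 for Ccr1 in place of −0.58. Of the 7 only Ccr7 stayed lower, at −1.03 in place of −3.21. The pseudocount understates the change of low markers and was not added to the receptor, so receptor and markers were not on a like scale.

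A further 14 chemokine receptor genes were mostly scarce. Of these 2 passed the filter, Ccr8 and Cxcr6, and 0 were higher or lower by limma-trend, also at an unadjusted p under 0.05, while limma-voom called 0 as well. Ccr8 averaged 2.03 FPKM in GPR35-positive and 2.15 FPKM in GPR35-negative libraries, with a log2 fold change of −0.05 (95% interval −0.26 to 0.15, adjusted p = 0.613). Cxcr6, a receptor gene of resident T and NK cells, averaged 3.26 FPKM in GPR35-positive and 3.65 FPKM in GPR35-negative libraries. Its log2 fold change was −0.10 (95% interval −0.47 to 0.28, limma adjusted p = 0.613). The groups overlapped for both, and with median-of-ratios scaling their fold changes were 0.04 for Ccr8 and 0.01 for Cxcr6.

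With the filter of 0.1 FPKM, 8 of the 14 were tested, and 5 were higher and 0 lower, against 24.5% of all 13243 genes higher. These were Ccr3, Cxcr5, Cxcr3, Ccr9 and Ccr1l1, with log2 fold changes of 0.43, 0.42, 0.40, 0.25 and 0.21. Ccr9 and Ccr1l1 reached 0.1 FPKM in no GPR35-negative library, so that a difference was built into their passing, and of the other 6 tested 3 were higher. Ccr10 did not pass, at −0.04. All 5 had mean levels of at most 0.806 FPKM in GPR35-positive libraries, and Ccr1l1 rests on 11 reads in all GPR35-positive and 1 read in all GPR35-negative libraries. Xcr1, the receptor gene of cross-presenting dendritic cells, had 44 reads in GPR35-positive and 4 in GPR35-negative libraries. Ccr4, Ccr6, Ackr1 and Ackr4 had at most 4 reads over the libraries of either group, and Ackr2 had 6 reads in GPR35-positive and 17 in GPR35-negative libraries.

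**Figure D3:**
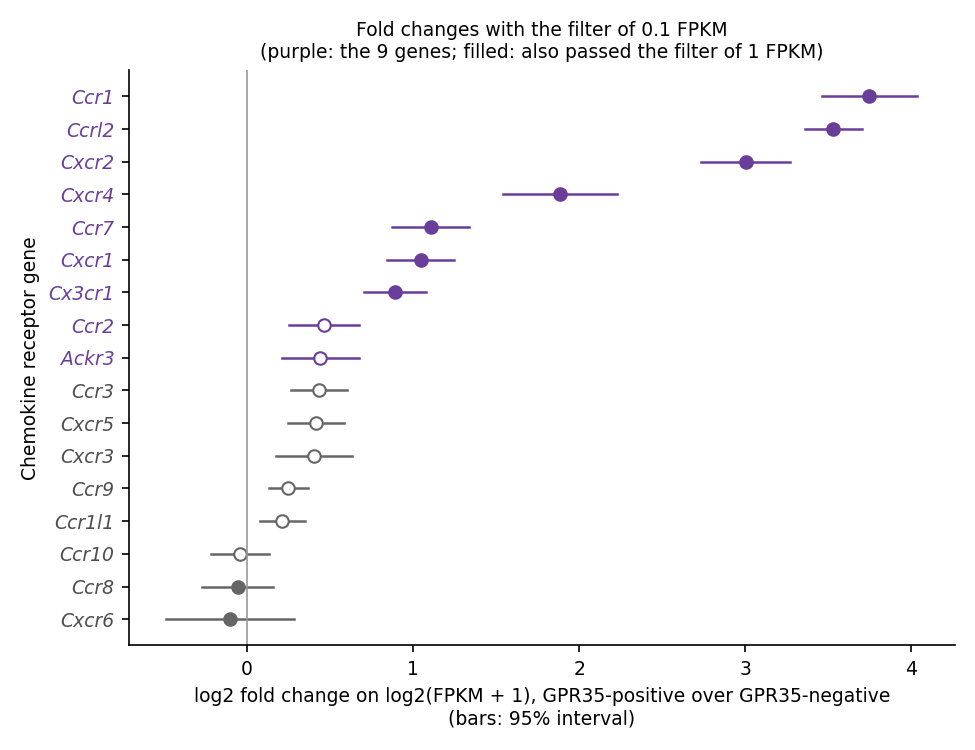
Log2 fold change on the log2(FPKM + 1) scale, GPR35-positive over GPR35-negative, with 95% intervals, for 17 chemokine receptor genes that met a filter of 0.1 FPKM in 3 libraries (purple for the 9 genes described, grey for the others, filled where the filter of 1 FPKM was also met). Ccr1, Ccrl2 and Cxcr2 lie at 3.0 to 3.75, and the intervals of Ccr10, Ccr8 and Cxcr6 span 0.

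Ccr1 and Ccr2 lie in a cluster of receptor genes on chromosome 9 that spans 151 kb from the start of Ccr1 to the end of Ccr2. Along it the mean level was 227 FPKM for Ccr1, 0.181 FPKM for Ccr1l1, 0.485 FPKM for Ccr3 and 0.740 FPKM for Ccr2 in GPR35-positive libraries, against 16.2, 0.0166, 0.0967 and 0.258 FPKM in the same order in GPR35-negative libraries. These 4 genes were separated between the groups in the same direction, at mean levels of 0.181 to 227 FPKM in GPR35-positive libraries. Within 100 kb of Ccrl2, Ltf, which encodes the granule protein lactoferrin, was higher, at 12.4 ± 0.075 FPKM in GPR35-positive and 2.05 ± 0.406 FPKM in GPR35-negative libraries (SD, n = 3 each, log2 fold change 2.15). Lrrfip2 was higher as well, at 20.3 FPKM in GPR35-positive and 9.51 FPKM in GPR35-negative libraries (1.02). The remaining neighbours were under the filter. Rtp3 had 0.134, 0.120 and 0 FPKM in the GPR35-positive libraries, against 0.266, 0.232 and 0.187 FPKM in GPR35-negative libraries, and Lrrc2 overlapped between the groups.

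Of 19 ligand genes of these receptors, 14 passed the filter, of which 10 were higher and 3 lower, and Cxcl1 did not pass, where 23.3% of all genes tested were higher and 45.5% lower. Their median log2 fold change was 1.99, against −0.19 for all genes tested. Ccl9 passed through the GPR35-positive libraries alone, and of the other 13 tested 9 were higher and 3 lower. The CC ligands led. Ccl3, a ligand of CCR1, had 748, 638 and 696 FPKM in the GPR35-positive libraries, against 62.7, 51.9 and 43.0 FPKM in GPR35-negative libraries (log2 fold change 3.71, adjusted p = 1.95e-09). Ccl4, a close relative of Ccl3, had 909, 911 and 968 FPKM in the GPR35-positive libraries, against 93.9, 96.6 and 77.8 FPKM in GPR35-negative libraries (3.37, adjusted p = 7.2e-10). Both were among the most abundant of the ligand genes, and neither overlapped between the groups.

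Ligands of CCR2 were higher while Ccr2 itself stayed under 1 FPKM. Ccl12 had 32.8, 35.9 and 36.4 FPKM in the GPR35-positive libraries, against 0.648, 1.10 and 0.946 FPKM in GPR35-negative libraries (log2 fold change 4.25, adjusted p = 5.69e-10). Ccl7 averaged 66.6 FPKM in GPR35-positive and 8.59 FPKM in GPR35-negative libraries (2.82), and Ccl2 averaged 77.3 FPKM in GPR35-positive and 22.6 FPKM in GPR35-negative libraries (1.73). The CCR1 ligand Ccl9 averaged 5.31 FPKM in GPR35-positive and 0.335 FPKM in GPR35-negative libraries (2.24), and it met the filter through the GPR35-positive libraries alone. All of these were separated between the groups.

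Ligands of CXCR2 split by gene, and the lower calls depended on the scaling. Cxcl3 averaged 12.7 FPKM in GPR35-positive and 9.82 FPKM in GPR35-negative libraries (log2 fold change 0.34, limma adjusted p = 0.00422). It was also higher with median-of-ratios scaling (0.47). Cxcl2, which myeloid cells release, had 703, 826 and 802 FPKM in the GPR35-positive libraries, against 88.7, 97.7 and 76.2 FPKM in GPR35-negative libraries (log2 fold change 3.14, adjusted p = 1.68e-09). Cxcl5, which epithelial cells make, was lower, at 44.9 ± 6.25 FPKM in GPR35-positive and 59.7 ± 7.81 FPKM in GPR35-negative libraries (SD, n = 3 each, −0.41, adjusted p = 0.0106). Ppbp, the platelet basic protein gene, was also lower, at 52.8 ± 1.30 FPKM in GPR35-positive and 67.3 ± 9.13 FPKM in GPR35-negative libraries (SD, n = 3 each, −0.33, adjusted p = 0.00901). Neither passed once median-of-ratios scaling was applied, Cxcl5 at −0.27 (adjusted p = 0.0741) and Ppbp at −0.19 (adjusted p = 0.0801). Cxcl1 averaged 40.8 FPKM in GPR35-positive and 46.2 FPKM in GPR35-negative libraries (95% interval of the log2 fold change −0.35 to 0.01, limma adjusted p = 0.0817).

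Cx3cl1, the membrane-bound ligand of CX3CR1, had 7.90, 6.87 and 7.14 FPKM in the GPR35-positive libraries. In GPR35-negative libraries it had 11.5, 11.7 and 12.2 FPKM (log2 fold change −0.62, limma adjusted p = 8.73e-05). Ligand and receptor thus lay in opposite directions, and the Cx3cl1 call also held with median-of-ratios scaling. Of all genes tested 45.5% were lower. The ratio of mean FPKM was 0.620 for Cx3cl1, beside 0.657 for the summed hepatocyte and hepatoma markers, whose part in this difference was not tested. Other ligands were near the limit of the data. Cxcl12 averaged 0.719 FPKM in GPR35-positive and 0.291 FPKM in GPR35-negative libraries, below the filter, and the chemerin gene Rarres2 averaged 0.451 FPKM in GPR35-positive and 0.212 FPKM in GPR35-negative libraries. Of the CCR7 ligands, Ccl21a was listed at 0 in all 6 libraries, and Ccl19 had a value above 0 in 1 library of each group.

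**Figure D4:**
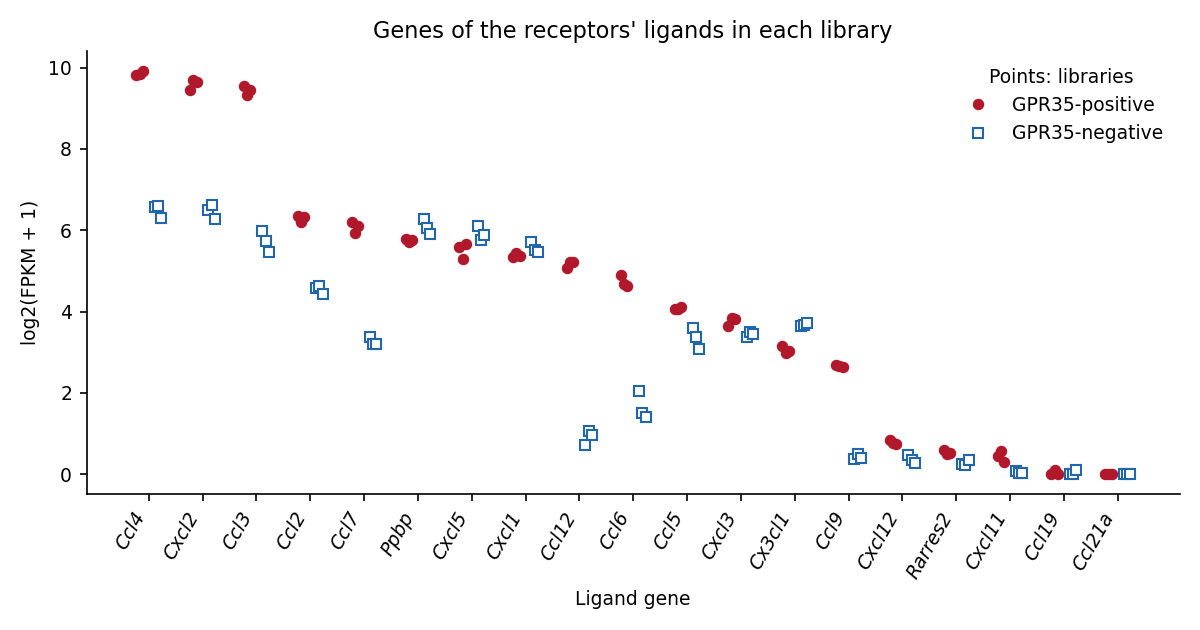
Level on the log2(FPKM + 1) scale of 19 ligand genes in 3 GPR35-positive (filled circles) and 3 GPR35-negative libraries (open squares). Ccl4, Cxcl2 and Ccl3 stand highest in GPR35-positive libraries, Ppbp, Cxcl5 and Cx3cl1 lie lower there, and Ccl21a is listed at 0 throughout.

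Receptors for attractants other than chemokines were also higher. Of 10 genes listed as such, 9 passed the filter and 9 were higher, against 23.3% of all genes tested. Their median log2 fold change was 2.83. Fpr2, C5ar2 and C3ar1 passed through the GPR35-positive libraries alone, and of the other 6 tested 6 were higher. Ptafr, the platelet-activating factor receptor gene, had 567, 468 and 532 FPKM in the GPR35-positive libraries, against 45.2, 35.4 and 30.7 FPKM in GPR35-negative libraries (log2 fold change 3.79). Hcar2, counted in the list, encodes a receptor for the metabolite hydroxybutyrate rather than for a classical attractant. It averaged 793 FPKM in GPR35-positive and 79.2 FPKM in GPR35-negative libraries (3.32). C5ar1, the complement C5a receptor gene, averaged 87.6 FPKM in GPR35-positive and 8.66 FPKM in GPR35-negative libraries (3.20), and C3ar1 averaged 5.42 and 0.271 FPKM in GPR35-positive and GPR35-negative libraries (2.34). The formyl peptide receptor genes Fpr1 and Fpr2, which also belong to the neutrophil marker list, had log2 fold changes of 3.29 and 2.65. Cmklr1, the signalling receptor gene for chemerin, was under the filter, at 0.269 FPKM in GPR35-positive and 0.0228 FPKM in GPR35-negative libraries.

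Among 26 genes of signalling downstream of chemokine receptors, 22 passed the filter, of which 15 were higher, 3 lower and 4 did not pass, where 23.3% of all genes tested were higher and 45.5% lower. Gng2, Pik3r5, Prex1 and Rgs18 passed through the GPR35-positive libraries alone, and of the other 18 tested 11 were higher and 3 lower. Their median log2 fold change was 1.2. The 6 with the smallest p were Rac2, Vav1, Rgs1, Rgs2, Gng2 and Elmo1. Rac2, the small GTPase of blood cells, averaged 76.6 FPKM in GPR35-positive and 13.1 FPKM in GPR35-negative libraries (2.46), and its exchange factor gene Vav1 averaged 22.1 FPKM in GPR35-positive and 2.27 FPKM in GPR35-negative libraries (2.82). Rgs1 and Rgs2, which encode proteins that switch off G protein signals, averaged 71.6 and 63.9 FPKM in the GPR35-positive libraries, against 9.72 and 7.38 FPKM in GPR35-negative libraries (2.76 and 2.95). Gng2 and Elmo1 had log2 fold changes of 1.76 and 1.53.

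The 4 tested genes that did not pass were Rac1, Gnai3, Gnb1 and Arrb1. Rac1 averaged 141 FPKM in GPR35-positive and 165 FPKM in GPR35-negative libraries (log2 fold change −0.20, adjusted p = 0.22), and Gnb1 passed as higher with median-of-ratios scaling (adjusted p = 0.0216). Cdc42, Gnai2 and Grk2 were higher, with log2 fold changes of 0.64, 0.70 and 0.64. Plcb3, a phospholipase gene, was lower, at 2.88 ± 0.685 FPKM in GPR35-positive and 5.65 ± 0.764 FPKM in GPR35-negative libraries (SD, n = 3 each, −0.79, adjusted p = 0.000545). The receptor kinase gene Grk6 was lower (log2 fold change −0.46, adjusted p = 0.00612). Gnb2 was lower (−0.32, adjusted p = 0.0277) and lost the call under median-of-ratios scaling (adjusted p = 0.183). The summed hepatocyte and hepatoma markers had a ratio of 0.657 between the same libraries, and their part in these differences was not tested.

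**Figure D5:**
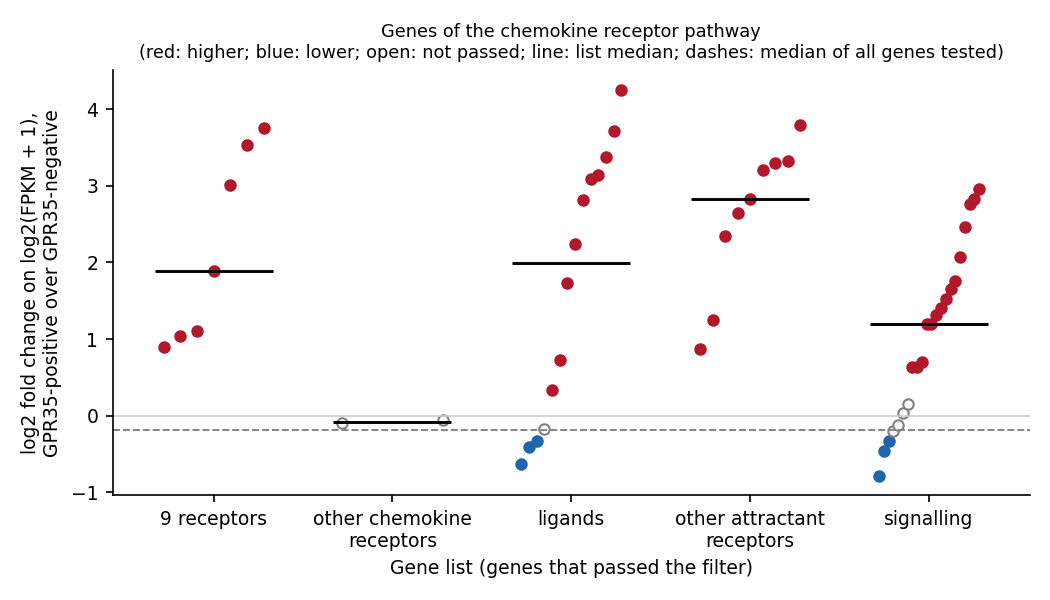
Log2 fold change on the log2(FPKM + 1) scale, GPR35-positive over GPR35-negative, of each gene that passed the filter in 5 lists (red higher, blue lower, open not passed), with a line at each list's median and dashes at −0.19, the median of all genes tested. The medians are 1.89 for the 7 tested of the 9 receptors, −0.08 for the 2 tested other chemokine receptors, 1.99 for ligands, 2.83 for other attractant receptors and 1.2 for signalling genes. A difference was built into the passing of Cxcr1, Cxcr4, Cx3cr1, Ccl9, Fpr2, C5ar2, C3ar1, Gng2, Pik3r5, Prex1 and Rgs18, which met the filter through the GPR35-positive libraries alone. With the filter of 0.1 FPKM, which all 9 receptors met in every library, their median was 1.11.

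The genes whose profiles over the 6 libraries were most like each receptor were found from the root-mean-square difference of centred log2(FPKM + 1) values, as a description. For Ccr1 they were Ccl3, the lectin receptor gene Clec4e and Plek, at differences of 0.049, 0.052 and 0.054. For Ccrl2 they were Cyba, Cd68 and Entpd1, at 0.051, 0.057 and 0.078. For Cxcr2 they were Batf, Il1rn and the class II gene H2-Ab1, at 0.028, 0.070 and 0.073. The genes nearest to these 3 receptors thus included a macrophage marker, a chemokine and an antigen presentation gene as well as an oxidase subunit.

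The profiles nearest to the other receptors were of different genes. For Cxcr4 they were Irf7, Lyst and Tnfrsf14, at 0.074, 0.087 and 0.102. For Ccr7 they were Prdm4, Lsmem1 and Rpl3l, at 0.059, 0.065 and 0.066, and for Cxcr1 they were Gab3, Arl5b and Heca, at 0.039, 0.058 and 0.060. For Cx3cr1 they were Tep1, Lgals3 and Wsb2, at 0.044, 0.045 and 0.061. With 2 groups of 3 libraries, genes of a like log2 fold change score as alike in this measure. Because the pseudocount of 1 understates the change of low genes, such genes can still differ in ratio of mean FPKM. Lgals3 averaged 1279 FPKM in GPR35-positive and 688 FPKM in GPR35-negative libraries, while Cx3cr1 averaged 1.32 and 0.250 FPKM in the same order.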

How the data were processed

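Per the labels' protocols, Trizol was used for total RNA and an NEBNext Ultra II RNA kit for the libraries. The authors deposited a table of FPKM, per the file headers. Tools listed in the submitters' processing notes, with no role, are DESeq 1.38.3, HTSeq 0.9.1, HISAT2 2.1.0 and fastp 0.22.0; the notes name GRCh38, a human build, although the table holds mouse gene identifiers. Of 21959 identifiers 21851 had an entry in GENCODE M21 (GRCm38), which gave symbols, positions and exon lengths. With these lengths 97.7% of FPKM values above 0 were whole reads within 0.02 reads, and reads and totals were read from these steps. Intervals on reads cover counting error only.

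Groups follow the titles. Differences were tested by limma-trend (limma 3.58.1, R 4.3.3) on log2(FPKM + 1), two-sided, over genes that reached 1 FPKM in 3 or more libraries, with Benjamini-Hochberg adjustment at 0.05. The test was also tried on simulated data. Log2 fold changes are on this scale, which understates low genes; ratios are of mean FPKM. Ratios to summed markers used an exact permutation test. A receptor gene of these lists is not reported here. The receptors and all lists were chosen with earlier results of these data known. Named genes are the receptors, Gpr35, the other receptors, up to 6 genes of each pathway list with the smallest p and all that fell, the 3 nearest profiles per tested receptor, and neighbours of Ccr1, Ccr2 and Ccrl2; others named were chosen after their values were seen. Alternatives were a pseudocount of 0.1, a filter of 0.1 FPKM, no filter, median-of-ratios scaling, limma-voom on recovered reads, a replicate block and leaving out each library. Python 3.11.15, pandas 2.3.3, scipy 1.17.1 and matplotlib 3.10.9 were used.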

Additional observations from a re-analysis of the deposited data

How the results depend on the processing

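The fold changes of the 7 tested receptors kept their direction and their side of the threshold in 84 of 84 combinations of receptor and alternative. That count includes Cxcr4, Cxcr1 and Cx3cr1, which met the filter only through the GPR35-positive libraries, so that a difference was built into their passing. The other 4 tested receptors, Ccr1, Ccr7, Ccrl2 and Cxcr2, were free of this limit. Median-of-ratios scaling moved the median of all genes tested by 0.12 on the log2 scale, and then 2731 genes were higher and 3036 lower, against 2342 and 4575 as deposited. It also left 1 ligand gene lower in place of 3. Other receptor genes called higher were 5 with the filter of 0.1 FPKM and 6 with no filter, against 0, because more genes were tested. The difference in the log2 ratio of Cxcr4 to summed neutrophil markers ran from −0.47 to 0.74 when 1 library was left out, and it was negative only without GPR35-negative replicate 3. With the mean log2(FPKM + 1) of the markers and no pseudocount on the receptor, some ratios to macrophage and monocyte markers changed direction. The differences turned from lower to higher for Ccr1 (1.60), Ccrl2 (1.31), Cxcr2 (1.32), Cxcr4 (1.4), Cx3cr1 (0.25) and Cxcr1 (0.090), and the cause was not tested. Whether label numbers pair the libraries is not known. Deviations of same-numbered libraries correlated at −0.0018, 0.4002 and −0.064, and those of differently numbered libraries at −0.373 to 0.248. Deviations from means of 3 libraries are tied to each other, so these values cannot decide it. With a replicate block 2365 genes were higher and 4633 lower, and 7 receptors were higher. Depth limits Cxcr4, Cxcr1, Cx3cr1 and Ackr3, at 3 to 24 reads in each GPR35-negative library, and Ccr2, at 19 to 43 reads.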
